A study of Mus musculus with 3 samples.

Results

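The enzymes that write and erase methyl and acetyl groups on histones were examined as m6A-carrying transcripts. The group held 53 mouse genes, chosen by name from the histone methyltransferases, demethylases, acetyltransferases and deacetylases together with 4 enzymes of DNA methylation. The choice was made with earlier results of these data known. A predicted m6A site was counted for a gene where it lay inside the span of that gene on the same strand. Of the 53 genes, 37 held at least 1 site and 16 held none, and the 37 genes carried 197 of the 19301 sites in the list (1.02%).

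The sites came from miCLIP2, in which fragmented RNA is crosslinked to an antibody against m6A and sequenced so that reads end next to the modified base. The RNA was poly(A)+ RNA of untreated RAW 264.7 cells, a mouse macrophage line derived from a virus-induced tumour, in 3 biological replicates. The machine learning model m6Aboost then scored each peak at an adenosine, so that m6A could be predicted in a cell line without a Mettl3 knockout. All replicates were merged into 1 site list, which gives a position, a strand and a score for each site and no read counts.

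The list fixed what could be measured. There was 1 condition, no spread between replicates and no test, so every share below is a description. Where a share has an interval, it is a 95% Wilson interval that covers counting error only and treats sites as independent. The score runs from 0.5 to 1 and is the model's output, not a level of methylation. The depth behind a single site is unknown. Gene expression was not analysed here, so a gene without a listed site cannot be read as unmethylated, and the macrophage label was not checked against marker levels.

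m6A is placed co-transcriptionally on mRNA by the METTL3-METTL14 complex, mainly at DRACH, which reads A, G or T, then A or G, then the modified A, then C, then A, C or T. It is known to be dense in long internal exons and around stop codons and rare close to splice junctions. The enzymes studied here act on chromatin: methyltransferases and acetyltransferases modify histone tails, demethylases and deacetylases reverse this, and the balance sets which promoters and enhancers are active in a macrophage.

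The following 21 bases, centred on the listed adenosine and written 5′ to 3′ on the gene's strand of GRCm38, show the highest-scored site of each role group. Capitals mark the 5 bases of the motif. Of the deacetylases and demethylases the best site of Hdac1 and of Jmjd1c is shown, not the higher-scored ones of Hdac3 and Kdm3b.
Kmt2a, H3K4 methyltransferase, chr9:44805014-44805034, minus strand, score 0.948: caggttgaGGACTttgcgctg
Setd5, SET-domain protein, chr6:113151602-113151622, plus strand, score 0.918: aagaaatgAGACTtgtggtca
Ash1l, H3K36 methyltransferase, chr3:89077072-89077092, plus strand, score 0.845: ttcggaagTGACTctcaaaag
Ehmt1, H3K9 methyltransferase, chr2:24884288-24884308, minus strand, score 0.901: taaatgcaGGACTctgagtgc
Dot1l, H3K79 methyltransferase, chr10:80793895-80793915, plus strand, score 0.963: ccaaacatGGACTgtggccaa
Kat2a, acetyltransferase, chr11:100705110-100705130, minus strand, score 0.876: gatcttacAGACTttctggcc
Hdac1, deacetylase, chr4:129522367-129522387, minus strand, score 0.622: cttcccagGAACTggggacct
Jmjd1c, demethylase family, chr10:67226696-67226716, plus strand, score 0.922: agccaaaaGAACTtacgaatc
Tet3, DNA hydroxylase, chr6:83368617-83368637, minus strand, score 0.949: cagaggagAAACTgtgggatc
In every one of these 9 windows the adenosine is followed by CT. The sites of Kmt2a, Setd5, Dot1l and Kat2a lay in the 3′ UTR and the other 5 in the coding sequence (CDS), where the stop codon is counted as coding.

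Sites were frequent but uneven across the group. With 37 of 53 genes holding a site, the share was 69.8%, beside 22.4% of all 21951 protein-coding genes, a background that counts every annotated gene. Because the genes were chosen with earlier results known, this share and the counts per gene below may partly follow from the choice. Of 40 further histone and DNA modifying enzymes outside the group, 42.5% held a site. The members were long transcripts, with a median spliced length of 6359 nt, against 3101 nt for all genes with a site. The 37 members carried a median of 4 sites each, with an interval of 3 to 6, and the median over all genes with a site was 3. At the upper end, 7 of 37 (18.9%) held 10 or more sites, beside 7.3% of all genes with a site. At the lower end, 6 of 37 (16.2%) held a single site, beside 26.1%.

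Measured per length the order was the other way round. All 53 members together carried 0.548 sites per kb of spliced transcript. The 37 members with a site carried 0.789 sites per kb of spliced transcript (interval 0.682 to 0.907), and all genes with a site carried 1.02 (1.01 to 1.04). Of the DRACH adenosines in these 37 transcripts, 182 of 4959 were listed (3.67%, 3.18 to 4.23%), beside 4.67% (4.60 to 4.74%) over all genes with a site.

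**Figure D1:**
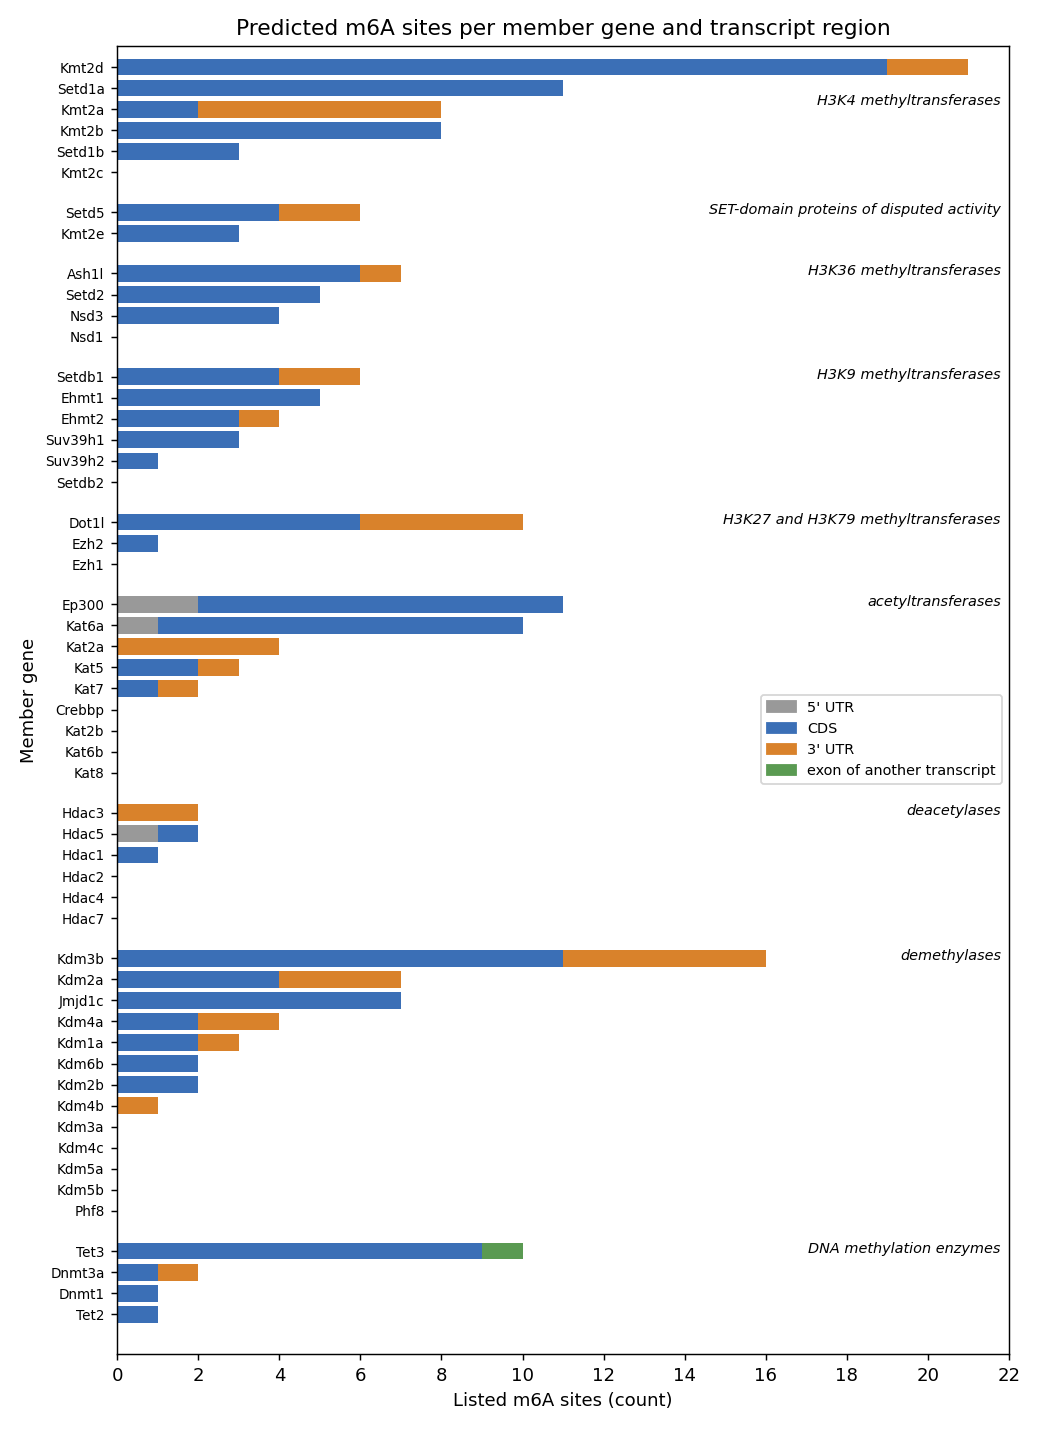
Listed m6A sites (count, horizontal axis) for each of the 53 member genes, grouped by role and coloured by transcript region. Kmt2d has the longest bar with 21 sites, 16 genes have no bar, and most bars are CDS.

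The coding sequence held most of the sites. On the transcript with the longest CDS of each gene, 153 of 197 sites (77.7%, 71.4 to 82.9%) were in the CDS, 39 (19.8%, 14.8 to 25.9%) in the 3′ UTR and 4 (2.03%) in the 5′ UTR. The remaining site, in Tet3, lay in an exon of another transcript. Over all genes with a site, the CDS held 51.3% and the 3′ UTR 43.2%. The DRACH adenosines of the members were themselves mostly coding (73.5%, against 54.3% over all genes with a site). The CDS share of sites was 1.06 times that of motifs in the members and 0.946 times over all genes with a site. In 16 genes every site was coding, in 3 genes (Kat2a, Hdac3 and Kdm4b) every site was in the 3′ UTR, and 30 genes had more coding than 3′ UTR sites.

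The sites kept to long exons and away from junctions. Of 196 exonic sites, 180 (91.8%, 87.2 to 94.9%) lay in exons longer than 400 nt, which held 57.5% of the DRACH adenosines in the same transcripts. Only 28 sites (14.3%, 10.1 to 19.9%) were within 100 nt of a junction, where 46.0% of the DRACH adenosines lay. The same shares over all genes with a site were 89.9% and 12.3%. By exon position, 65 of 196 (33.2%, 26.95 to 40.02%) were in the last exon, beside 68.8% over all genes with a site. The last exon held 29.9% of the members' DRACH adenosines and 50.1% of those of all genes with a site, so that the ratio of sites to motifs was 1.11 and 1.37. Of the 153 coding sites, 127 were upstream of the last exon.

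The share of DRACH adenosines that were listed varied with exon length. In internal exons of 101 to 200 nt, 4 of 1184 were listed (0.338%). In internal exons of 401 to 1000 nt the share was 11.8% (47 of 399, 9.0 to 15.3%), and it was 11.2% at 1001 to 2000 nt. Above 2000 nt it was 3.65% (24 of 657, 2.47 to 5.38%), while all genes with a site reached 6.91% (6.41 to 7.44%) there. The members with such giant exons differed among themselves. Exon 3 of Ash1l (4558 nt) had 4 sites at 113 DRACH adenosines, exon 3 of Setd2 (4286 nt) had 1 at 104, and exon 27 of Kmt2a (4237 nt) had 1 at 114. Exon 3 of Tet2 (3206 nt) had none, as did exon 5 of Nsd1 (2560 nt), a gene without a site that is not counted in these shares, whereas exon 40 of Kmt2d (2952 nt) had 11, of which 10 were among its 45 DRACH adenosines. Altogether 26 internal exons of 14 members exceeded 1000 nt, and 15 of them carried the 58 sites found there.

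**Figure D2:**
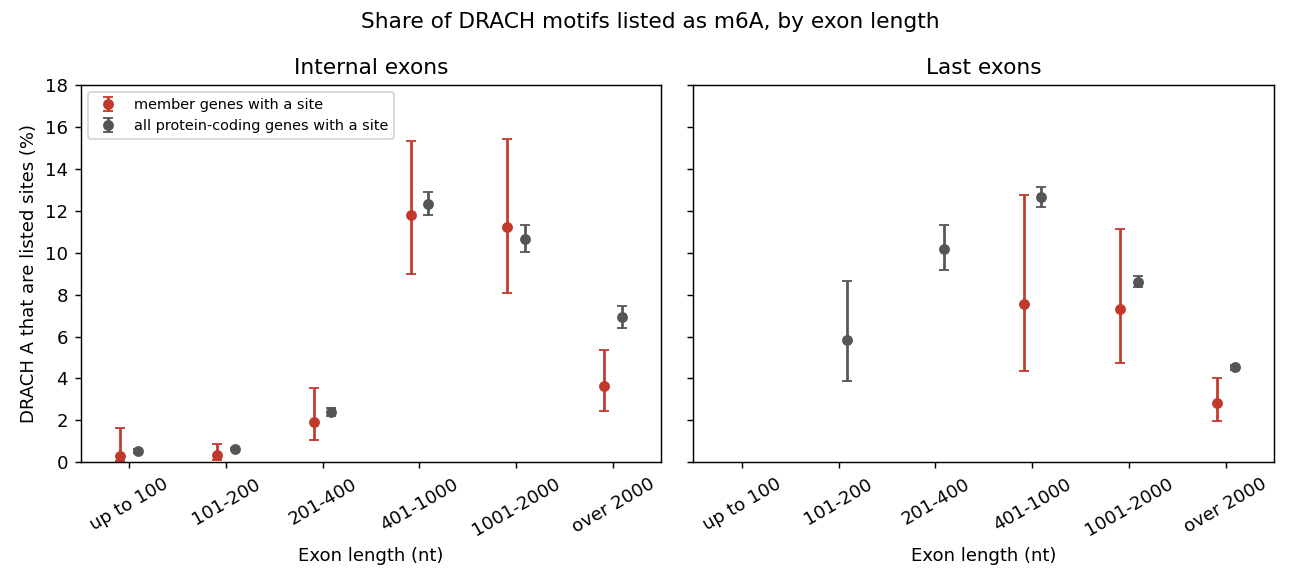
Share of DRACH adenosines listed as m6A (%, vertical axis) by exon length (nt) in internal exons (left) and last exons (right), for member genes with a site and for all protein-coding genes with a site. Bars are 95% Wilson intervals and bins with fewer than 50 DRACH adenosines are not drawn; in both sets the share is under 1% up to 200 nt and above 10% from 401 to 2000 nt in internal exons.

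Around the stop codon, 33 of 196 sites (16.8%, 12.2 to 22.7%) lay within 200 nt, in 15 genes, beside 32.4% over all genes with a site. Fewer motifs of the members lie there, 6.61% of DRACH adenosines against 11.7%, and the ratio of sites to motifs was 2.55 in the members and 2.77 over all genes with a site. The listed share of DRACH adenosines was 1.22% (1 of 82, 0.216 to 6.59%) from 200 to 101 nt before the stop codon, where all genes with a site had 7.66%. It was 10.96% (8 of 73, 5.66 to 20.2%) in the last 100 nt before the stop codon. In the first 100 nt from the stop codon the share was 9.80% (10 of 102, 5.41 to 17.1%), and 16.9% (12 of 71, 9.94 to 27.3%) in the next 100 nt. All genes with a site had 11.8%, 17.2% and 14.9%. It was 3.45% (2 of 58, 0.951 to 11.7%) from 200 to 299 nt, where all genes with a site had 10.9%. In each bin from 100 nt before the stop codon to 299 nt after it, the members' interval overlaps that of all genes with a site.

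**Figure D3:**
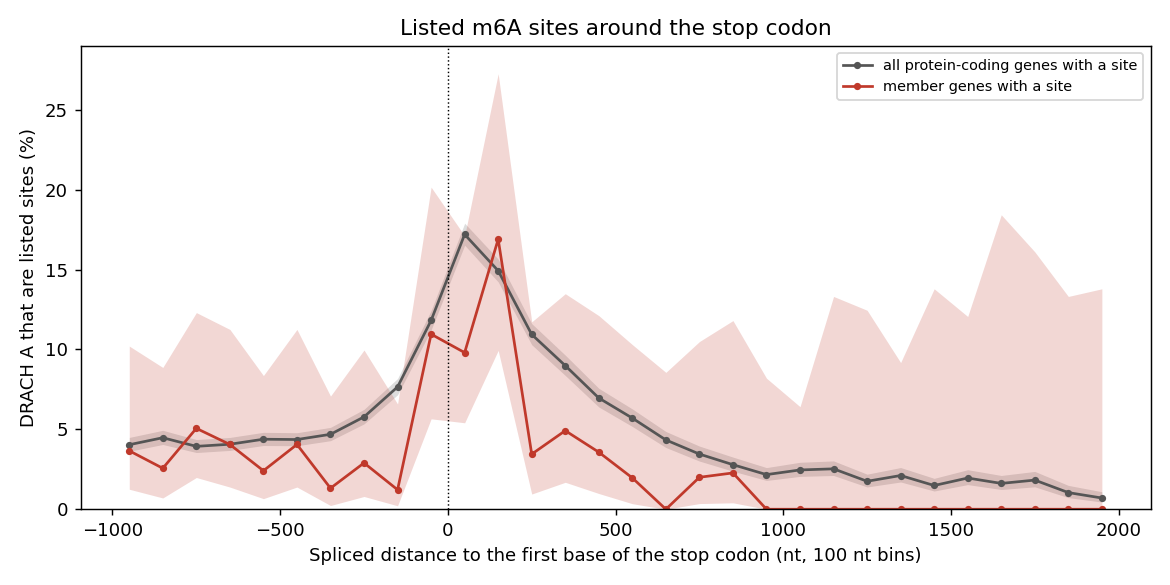
Share of DRACH adenosines listed as m6A (%, vertical axis) by spliced distance to the first base of the stop codon (nt, 100 nt bins; dotted line, stop codon) for member genes with a site and all protein-coding genes with a site. Shading is the 95% Wilson interval; the members' line peaks at 16.9% in the bin from 100 to 199 nt and the line of all genes at 17.2% in the bin from 0 to 99 nt.

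The motifs were the usual ones. DRACH held 183 of 197 sites (92.9%, 88.4 to 95.7%), and the share over all genes with a site was 92.0%. GGACT was the most frequent pentamer with 46 sites (23.4%, 17.99 to 29.7%; 19.4% of the list), followed by GGACA with 27, AGACT with 24 and GAACT with 23. The 14 sites outside DRACH lay in 12 genes and scored at most 0.694, with a median of 0.541 against 0.727 at DRACH. The model reads the surrounding sequence, so score and motif are not independent. The 3 of them with the highest scores are shown, and all 3 close the motif with G.
Kdm2b, chr5:122880763-122880783, minus strand, score 0.694: gaaccggaGGACGatctgcct
Kdm2a, chr19:4324827-4324847, minus strand, score 0.690: gccgtgatGAACGcttcaaac
Ep300, chr15:81601384-81601404, plus strand, score 0.685: caagtcatGAACGgttccatt
Kdm2b and Kdm2a are related H3K36 demethylases that bind unmethylated CpG islands through a CXXC domain. Both listed sites of Kdm2b were outside DRACH (GGACG and AGACG), and it was the only member with a site and none at DRACH.

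Scores were lower in coding than in 3′ UTR sites. The median was 0.689 (quartiles 0.592 and 0.798) over 153 CDS sites and 0.814 (0.742 and 0.873) over 39 sites in the 3′ UTR. Coding sites in the last exon had a median of 0.735 (26 sites) and those upstream of it 0.685 (127 sites). The model also uses the transcript region as an input. Over all 197 sites the median was 0.702, beside 0.734 in the whole list. Only 13 sites in 11 genes reached 0.9, with Dot1l (0.963), Hdac3 (0.954), Tet3 (0.949) and Kmt2a (0.948) at the top.

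**Figure D4:**
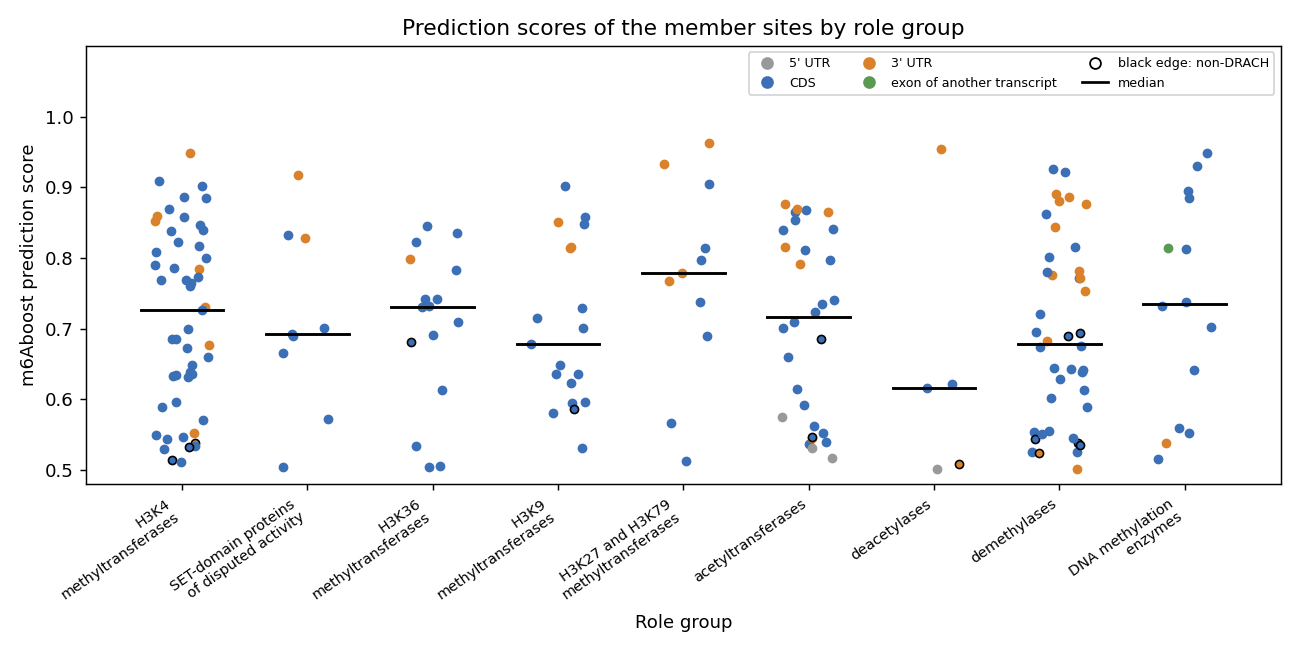
m6Aboost prediction score (vertical axis, no unit) of each of the 197 member sites by role group. Colour gives the transcript region, a black edge marks a site outside DRACH and a bar is the group median; points of the 3′ UTR lie mostly above 0.7, and all sites outside DRACH lie below it.

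Among the H3K4 methyltransferases, which mark promoters and enhancers, 5 of 6 genes held 51 sites, 43 of them coding. Kmt2d (ENSMUSG00000048154.17, chr15:98831669-98871204, minus strand), a main writer of H3K4 monomethylation at enhancers, held 21 sites and ranked 13 among the 4921 genes with a site. Its sites sat in a few long exons, with 11 in exon 40 (2952 nt), 6 in exon 35 (1982 nt), 1 in exon 49 and 3 in the last exon. Exons 11, 12 and 32, each longer than 1000 nt as well, had none at 18, 25 and 25 DRACH adenosines. Scores ran from 0.511 to 0.901, and the highest one, in exon 35, is printed here with the run of 5 sites in exon 40 that was the cluster with most sites in the group, spanning 262 nt.
Kmt2d exon 35, chr15:98850537-98850557, minus strand, score 0.901: caaacactGAACTtagtcgtc
Kmt2d exon 40, chr15:98844088-98844108, minus strand, score 0.838: ccatccagGGACTccaaagcc
Kmt2d exon 40, chr15:98844013-98844033, minus strand, score 0.514: gcttgcagATACTttctttgg
Kmt2d exon 40, chr15:98843990-98844010, minus strand, score 0.823: aggggctaGGACCttgggacc
Kmt2d exon 40, chr15:98843903-98843923, minus strand, score 0.858: aggtgaacGGACAggtggtac
Kmt2d exon 40, chr15:98843827-98843847, minus strand, score 0.765: gggtgcacAGACAgtgaaaag
The 5 sites of the cluster follow transcript order and use 5 different pentamers. The 4 at DRACH scored 0.765 to 0.858 and the one at ATACT 0.514.

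Kmt2c, the closest relative of Kmt2d, had no listed site. Its chosen transcript of 14967 nt, with an annotated 3′ UTR of only 57 nt, holds 368 DRACH adenosines, more than the 338 of Kmt2d. In exons longer than 400 nt, however, Kmt2c holds 197 and Kmt2d 215. The 4 internal exons of Kmt2c above 1000 nt (exons 36, 38, 43 and 52) hold 58, 52, 45 and 19 DRACH adenosines. Kmt2a (MLL1) and Kmt2b (MLL2), a second pair of related enzymes, each had 8 sites with opposite placement. In Kmt2a 7 of 8 were in the last exon and 6 in the 3′ UTR, of which 5 lay 2076 to 2949 nt beyond the stop codon, with scores of 0.731 to 0.948. In Kmt2b all 8 were coding and upstream of the last exon, 5 of them in exon 28 (1300 nt), with scores of 0.529 to 0.886. The annotated 3′ UTR of Kmt2b is 303 nt and that of Kmt2a 4547 nt.

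The coding sequences of all 4 MLL family members end in the codon AAC, and its second base was listed in 2 of them. This comparison was chosen after the values were seen.
Kmt2a, chr9:44807896-44807916, minus strand, listed with score 0.631: aagttcctGAACTaaagctgt
Kmt2d, chr15:98834494-98834514, minus strand, listed with score 0.589: aaatggatGAACTaagaagct
Kmt2c, chr5:25273660-25273680, minus strand, not listed: aagtggatGAACTgaatgcat
Kmt2b, chr7:30569155-30569175, minus strand, not listed: cgctttctTAACTgaggccat
Kmt2c carries the same GAACT pentamer as the listed pair and Kmt2b carries TAACT, which is also DRACH.

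Setd1a and Setd1b, catalytic subunits of the SET1 complexes that place most H3K4 trimethylation at promoters, had 11 and 3 sites, all coding. Setd1a (ENSMUSG00000042308.14, chr7:127776670-127800122, plus strand) held 6 sites in exon 14 (1056 nt), 3 in exon 8 and 2 in exon 7. Its scores ran from 0.533 to 0.839, and the 2 highest were a pair of GGACC sites 22 nt apart in exon 14, of which the higher is shown.
Setd1a, chr7:127795890-127795910, plus strand, score 0.839: cgtagagcGGACCattcgtaa
Of the 11 sites, 10 also lie within Gm49388, an annotated gene on the same strand, so their assignment to Setd1a is uncertain. The 3 sites of Setd1b scored 0.773, 0.846 and 0.910 and lay in 3 different exons.

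Setd5 and Kmt2e are SET-domain proteins whose own methyltransferase activity is disputed. The 6 sites of Setd5 were all in its last exon, and 5 of them were within 200 nt of the stop codon, at -165, -18, -7, 27 and 144 nt from its first base. Their scores were, in this order, 0.666, 0.692, 0.832, 0.828 and 0.918. Kmt2e had 3 coding sites with scores of 0.505 to 0.689, 2 of them in exon 17 (309 nt) and none near the stop codon.

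Of the H3K36 methyltransferases, 3 of 4 held 16 sites, 15 of them coding. Ash1l (ENSMUSG00000028053.13, chr3:88950622-89079375, plus strand), which dimethylates H3K36, had 7. Its highest score, 0.845, was at the A of its own TGA stop codon, in the TGACT shown above, and it was the only member site inside a stop codon. Setd2, the H3K36 trimethylase that travels with elongating polymerase, had 5 sites, and 3 of them fell within 72 nt of exon 12 (663 nt). Nsd3 had 4 and Nsd1 none, with 220 and 280 DRACH adenosines.

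The H3K9 methyltransferases write the mark of silent chromatin, and 5 of 6 genes held 19 sites. Setdb1, which silences retroelements, had 6, with the 2 highest scores (0.816 and 0.814) in the 3′ UTR within 200 nt of the stop codon. Ehmt1 (GLP) had 5, all in exon 3 (557 nt), with scores of 0.595 to 0.901. Its partner Ehmt2 (G9a) had 4, each in a different exon, and the best (0.851) was in the 3′ UTR. Suv39h1 had 3 sites, all in exon 3 (663 nt), and Suv39h2 had 1, also in exon 3 (660 nt). Setdb2 had none.

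Among the enzymes for H3K27 and H3K79, Dot1l stood at 10 sites, Ezh2 at 1 and Ezh1 at 0. Dot1l (ENSMUSG00000061589.14, chr10:80755206-80795461, plus strand), the only known H3K79 methyltransferase, carried the highest score of all member sites, 0.963, at 393 nt beyond the first base of the stop codon. Its 4 sites in the 3′ UTR lay at 279 to 571 nt and scored 0.767 to 0.963, and none of its sites was within 200 nt of the stop codon. The 6 coding sites were in exons 20, 24 and 27 and scored 0.567 to 0.905. Ezh2, the catalytic subunit of Polycomb complex PRC2, had 1 site at AAACA in exon 12 (95 nt) with a score of 0.513, close to the lower limit of the list.

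The acetyltransferases, which open chromatin, held 30 sites in 5 of 9 genes, and 8 of the sites were within 200 nt of the stop codon. Ep300 (ENSMUSG00000055024.12, chr15:81585351-81652077, plus strand), the enhancer acetyltransferase p300, had 11. Of these, 6 were in exon 2 (638 nt), 3 in the last exon and 2 in the 5′ UTR, and the last exon held the highest score.
Ep300, chr15:81649242-81649262, plus strand, score 0.868: catgcaacGAACTggtgtggc
Kat6a (MOZ) had 10 sites with scores of 0.531 to 0.865, of which 5 lay in the coding part of its last exon (5271 nt) and none in the 3′ UTR of 2617 nt. Kat2a (GCN5) had 4, all in its 3′ UTR of 492 nt, at 77, 104, 120 and 321 nt from the first base of the stop codon, and its scores of 0.791 to 0.876 gave it the highest median (0.840) of the members with at least 4 sites. Kat5 (TIP60) had 3 sites, all within 200 nt of the stop codon, and Kat7 (HBO1) had 2. Crebbp, Kat2b, Kat6b and Kat8 had none.

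The deacetylases had the fewest sites per length, 5 sites in 3 of 6 genes or 0.222 per kb (interval 0.0720 to 0.517). This interval overlaps, for example, that of the H3K36 methyltransferases, at 0.373 per kb (0.213 to 0.606). No deacetylase transcript had an internal exon longer than 400 nt, the longest being 366 nt in Hdac5. Hdac3, the catalytic subunit of a nuclear corepressor complex, had 2 in its 3′ UTR, and their scores were far apart at 0.954 (AGACT) and 0.508 (CAACT). Hdac5 had 2, with scores of 0.616 and 0.502, and Hdac1 had 1 (0.622) in exon 6 (142 nt). Hdac2, Hdac4 and Hdac7 had none, at 48, 153 and 89 DRACH adenosines.

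The demethylases held 42 sites in 8 of 13 genes. Kdm3b (ENSMUSG00000038773.11, chr18:34777047-34838660, plus strand), which removes H3K9 methyl groups, had 16 and the highest rate of the members, 2.51 per kb. Exon 8 (1249 nt), with 20 DRACH adenosines, held 10 of them, 1 of which was outside DRACH (CGACT), and the 3′ UTR held 5. The sites in exon 8 scored 0.535 to 0.926 and those in the 3′ UTR 0.502 to 0.891. Jmjd1c, a member of the same family, had 7 coding sites in exons 8 (1682 nt) and 10 (2183 nt), and Kdm3a had none.

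The other demethylases carried fewer sites. Kdm2a had 7, Kdm4a 4, Kdm1a (LSD1) 3, Kdm6b and Kdm2b 2 each and Kdm4b 1. Kdm6b (JMJD3), the H3K27 demethylase induced by inflammatory stimuli in macrophages, had its sites in exon 11 (2168 nt) with scores of 0.720 and 0.863. Kdm4a had 2 sites in its 3′ UTR, 15 nt apart at 72 and 87 nt from the stop codon, and the second scored 0.886. The H3K4 demethylases Kdm5a and Kdm5b had no site at 229 and 165 DRACH adenosines, nor did Kdm4c and Phf8.

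The enzymes of DNA methylation act on DNA rather than histones, and all 4 held a site. Tet3 (ENSMUSG00000034832.15, chr6:83362373-83459084, minus strand), which oxidises 5-methylcytosine, had 10 and its paralogue Tet2 had 1, at 107 and 192 DRACH adenosines. In Tet3, 6 sites were in the last exon (1784 nt), and the 2 highest scores, 0.949 and 0.895, were both at AAACT. The chosen transcript of Tet3 has no annotated 3′ UTR, and the site outside it, with a score of 0.814, lay in an exon of another transcript. The single site of Tet2 scored 0.560. The de novo methyltransferase Dnmt3a had 2 sites, at -76 and 75 nt from the first base of the stop codon, with scores of 0.930 and 0.538, and the maintenance enzyme Dnmt1 had 1 (0.642).

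**Figure D5:**
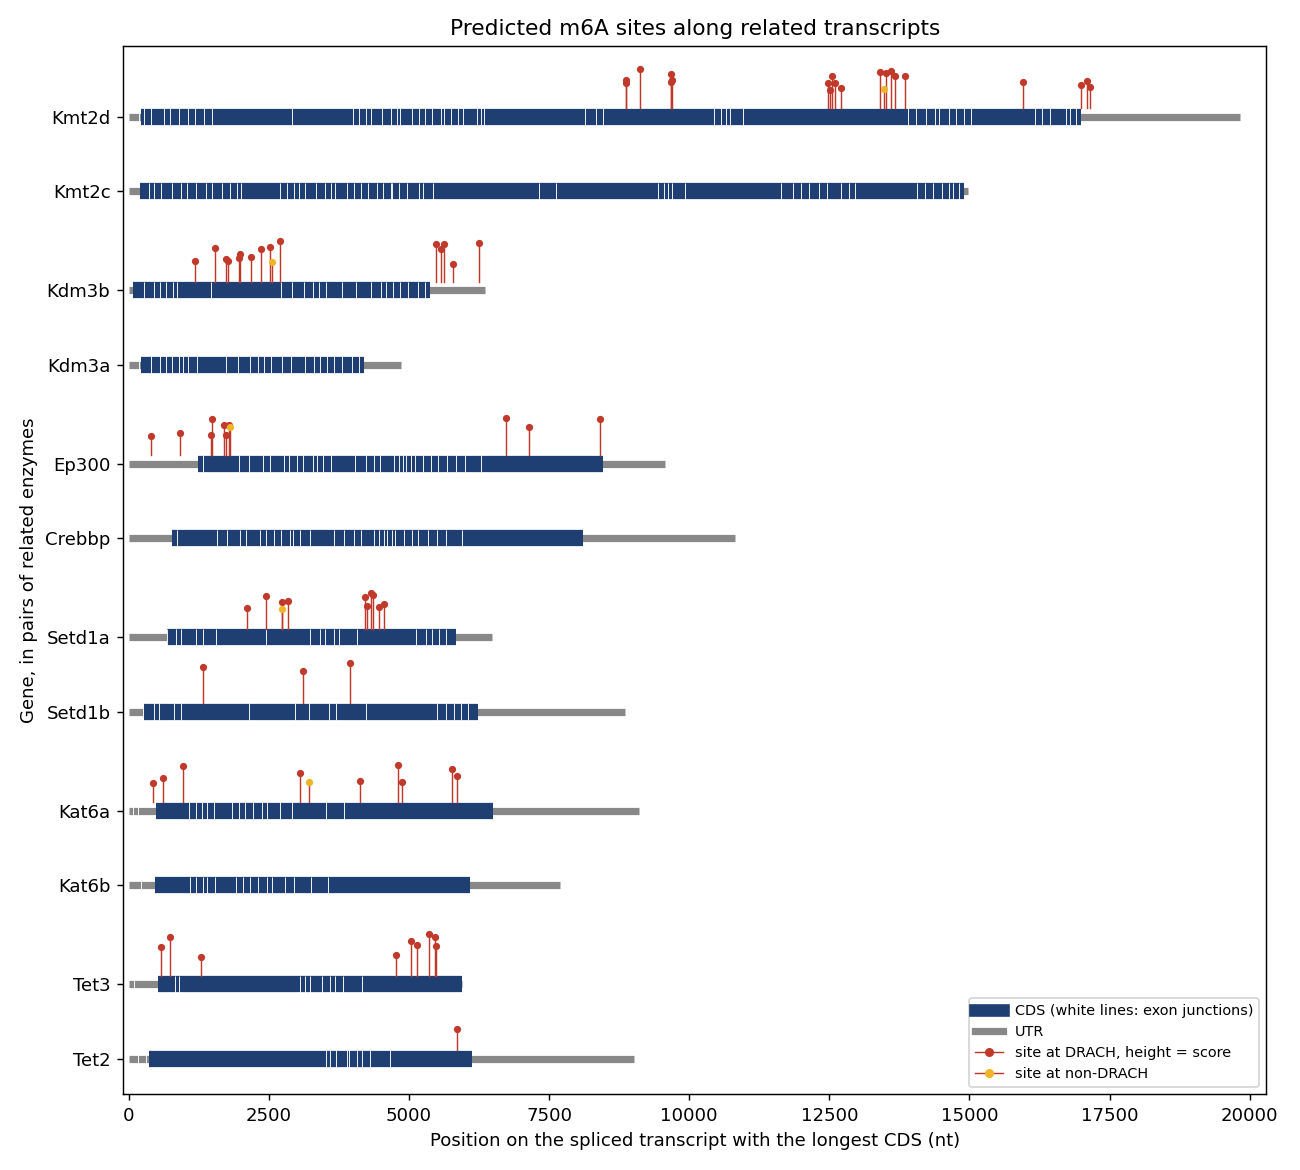
Spliced transcripts (nt, horizontal axis) of 6 pairs of related enzymes, with the CDS in blue, UTRs in grey, white lines at exon junctions, and a stem for each listed site whose height is its score (red, DRACH; yellow, outside DRACH). Sites gather in a few long exons in Kmt2d, Kdm3b, Ep300 and Setd1a, while Kmt2c, Kdm3a, Crebbp and Kat6b have none; the Tet3 site outside the chosen transcript is not drawn.

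Some related enzymes differed widely in listed sites and others did not. In 16 pairs of paralogues, picked after the values were seen, 9 pairs had 1 member with sites and 1 without. With 37 of 53 members holding a site, pairs of unrelated members would often differ in this way too, and such pairs were not counted. Expression of the paired genes was not analysed. Ep300 had 11 sites, 10 of them among its 198 DRACH adenosines, and Crebbp (CBP) had 0 with 220. Kdm3b had 16, 15 of them among 117 DRACH adenosines, and Kdm3a 0 with 140. Kat6a had 10, 9 of them among 190, and Kat6b 0 with 168. DRACH adenosines in exons longer than 400 nt numbered 104 in Ep300 and 121 in Crebbp. They numbered 56 in Kdm3b and 38 in Kdm3a, and 141 in Kat6a and 123 in Kat6b. In 2 of the 9 pairs, Hdac1 with Hdac2 and Ezh2 with Ezh1, the difference was a single site. Kmt2a and Kmt2b had 8 each, Ehmt1 and Ehmt2 5 and 4, and Kdm5a and Kdm5b none.

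The coding sequences of each pair were also aligned, with gaps, and the 21 bases around each coding site were then compared position by position. Of 108 coding sites in the pairs, 10 had at least 14 of 21 bases identical to the paralogue in this way. The aligned pentamer was DRACH in 4 of the 10, in the pairs Ep300 and Crebbp, Ezh2 and Ezh1, Hdac1 and Hdac2, and Kat6a and Kat6b, and none of the 4 was listed in the second gene, which had no site at all. In the other 6 the aligned pentamer was not DRACH. Counted with gaps allowed inside the 21 bases, 25 sites reached 14 identical bases, 10 of them had a DRACH counterpart and 1 counterpart was listed, a Kmt2a site aligned to one of Kmt2b, where 7 of 21 bases were identical position by position. A pair of neighbouring sites in exon 2 of Ep300 shows both cases beside Crebbp.
Ep300, chr15:81601040-81601060, plus strand, listed with score 0.552: cgaaacatAAACAgctgtcag
Crebbp, chr16:4180008-4180028, minus strand, not listed: ccaaacatAAACAactgtcag
Ep300, chr15:81601052-81601072, plus strand, listed with score 0.841: agctgtcaGAACTgctgaggt
Crebbp, chr16:4179996-4180016, minus strand, not listed: aactgtcaGAGCTtcttagag
The first Ep300 motif is kept in Crebbp, with 19 of 21 bases identical, and the second is GAGCT there, which is not DRACH.

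The 16 members without a listed site varied in the motifs they hold. Together their transcripts had a median spliced length of 5606 nt and held 2370 DRACH adenosines, 1248 of them in exons longer than 400 nt. Kmt2c, Nsd1, Kdm5a and Crebbp each held more than 200. At the other end, Kat8 (37) and Hdac2 (48) held the fewest, with 0 of them in exons longer than 400 nt. Expression, whose part in these absences was not tested, would be needed to read them further.

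Sites of 1 transcript often lay close together. Of 196 exonic sites, 97 (49.5%, 42.6 to 56.4%) had another within 100 nt of spliced sequence, beside 60.0% over all genes with a site, and neighbouring sites were a median of 161 nt apart. With gaps of at most 100 nt, 14 runs of 3 or more sites held 47 sites in 10 genes. Besides the run of 5 in Kmt2d, there were runs of 4 in exon 2 of Ep300 (115 nt), in exon 40 of Kmt2d (125 nt) and in exon 14 of Setd1a (140 nt). The 6 members with most sites held 79 of the 197 (40.1%).

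The proteins that work with these enzymes gave a comparison from wider lists of the pathway. Of 40 further histone and DNA modifying enzymes, 17 (42.5%) held 99 sites. Of 40 subunits and partners of the complexes, 29 (72.5%) held 119. Over all protein-coding genes the share with a site was 22.4%, and these lists too were chosen with earlier results of these data known. The most sites among the further enzymes were in Kat14 (18), an acetyltransferase of the ATAC complex, Riox1 (17), a JmjC-domain oxygenase, and Kmt5b (12), an H4K20 methyltransferase. Among the partners, Brpf1, the scaffold of the Kat6a complex, and Msl1, a scaffold of Kat8, held 11 sites each. Of the listed sirtuins, NAD-dependent deacylases, Sirt7 held 2 sites, with scores of 0.636 and 0.882, and Sirt1, Sirt2, Sirt3 and Sirt6 none. The H3K27 demethylase Kdm6a had none either. The median over genes with a site was 4 for the enzymes and 3 for the partners, beside 3 over all protein-coding genes with a site.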

How the data were processed

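Poly(A)+ RNA of 3 untreated RAW 264.7 replicates was profiled by miCLIP2. Per the submitters' processing notes, STAR 2.7.3a, SAMtools 1.9, UMI-tools 1.0.0 and bedtools 2.27.1 were used on mm10 (GRCm38.p6). Reads with C-to-T transitions were set apart, PureCLIP peaks present in at least 2 replicates were kept, and the authors deposited the sites at A with an m6Aboost score above 0.5 as 1 list; the score is the unit used here. The list holds no counts, so depth per site is unknown.

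Sites were placed on GENCODE M21 (GRCm38), whereas the study used a later release of the same build. For each gene the protein-coding transcript with the longest CDS was taken. For the background, a site in several genes was given to 1 gene. DRACH adenosines were counted in full on the same transcripts. Motifs were read as 5 genomic bases, which equalled the spliced ones at all exonic sites. Every exonic count uses the spliced transcript. Where intervals are given, they are 95% Wilson for shares, exact Poisson for rates and order-statistic for medians. No test was run.

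All 53 members are accounted for. Described in depth were the 6 members and, per role group, the member with most sites, with the 3 genes with most sites of each wider list, of which 1 is not reported here. Sequences are of the best site per group and of those members, the 3 best outside DRACH and the largest cluster; none is shown from chromosome 18. The members and lists were chosen with earlier results of these data known. The scripts were tested on simulated data and run with Python 3.11.15, NumPy 2.4.6, SciPy 1.17.1 and matplotlib 3.10.9.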

Additional observations from a re-analysis of the deposited data

How the results depend on the processing

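Of 65 alternatives computed for 12 results, 36 left the value within its own interval, or within 1.5 times for the counts of sites and of members, and 29 moved it further. With a score of at least 0.7, 101 sites were left, at 0.280 per kb over all 53 members (0.548 before), with 100% at DRACH, 69.3% in the CDS, 29.7% in the 3′ UTR and 98.0% in exons longer than 400 nt, and the median score was 0.815. With a score of at least 0.9, 13 sites in 11 members were left, a median of 1 per member and 0.0364 per kb, with 100% at DRACH, 61.5% in the CDS, 38.5% in the 3′ UTR, 100% in exons longer than 400 nt and 0% with a neighbour within 100 nt, and the median score was 0.926. Fewer sites follow from the stricter score itself; the cause of the changed shares was not tested. With transcripts of support level 1 to 3 only, 59.9% of 177 sites were in the CDS, because 37 of the 177 lay outside the exons of those transcripts; of the 140 inside, 75.7% were coding. For 5 members (Ash1l, Kdm6b, Kmt2a, Kmt2e and Nsd1) there is no such transcript. The motif RRACH held 84.3% of sites. Other windows moved the shares by construction: 10.2% lay within 100 nt of the stop codon, 97.4% in exons over 200 nt and 56.6% in exons over 1000 nt, 6.12% within 50 nt and 30.6% within 200 nt of a junction, and 29.6% and 69.9% had a neighbour within 50 and 200 nt.

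Leaving out the 6 members with most sites (Kmt2d, Kdm3b, Ep300, Setd1a, Dot1l and Tet3), an alternative chosen after seeing the data, gave 22.9% within 200 nt of the stop codon, 86.4% in exons longer than 400 nt and 42.4% with a neighbour within 100 nt. Kat6a ties with Dot1l and Tet3 at 10 sites and was kept for its lower median score. Without sites that also lie in another gene, 187 sites remained. No paired analysis was possible because all replicates stand merged in a single condition, and for the same reason none of them could be left out. The list gives no depth, so a site missing from it cannot be told apart from one that was not covered.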

Other observations

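Within the CDS, the listed adenosine was the first base of a codon at 51 of 153 sites (33.3%, interval 26.4 to 41.1%), the second at 61 (39.9%, 32.5 to 47.8%) and the third at 41 (26.8%, 20.4 to 34.3%). The DRACH adenosines of the same transcripts were at 28.3%, 48.9% and 22.8%. These shares were not tested.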
